A study of Mus musculus with 12 samples.

Results

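The IgE receptor and mast cell mediator genes were 10 genes taken by their mouse symbols from the raw count table, out of 51912 genes listed there. They comprised the 3 chains of the high-affinity IgE receptor (Fcer1a, Ms4a2 and Fcer1g) and 7 other genes. These 7 encode mediators or enzymes that make mediators or act on steroids (Hdc, Cyp11a1, Akr1c18, Hpgds, Alox5, Il4 and Il13). The normalised read counts of all 10 (CPM, scaled by library size) were followed over the 4 groups of the study. Bone marrow cells of C57BL/6 mice were transduced with retroviruses, and lineage negative cells that carried both fluorescent reporters were sorted and frozen before RNA was prepared. The groups were cells given CSF3R T618I and CEBPA V314VW simultaneously, cells given CSF3R T618I, cells given CEBPA V314VW, and cells given empty vector, with 3 libraries each, lettered A, B and C. CSF3R T618I is an activating mutant of the granulocyte colony stimulating factor receptor, and CEBPA V314VW is a C-terminal mutant of a transcription factor that directs myeloid cells. All groups shared a culture with WEHI conditioned medium, IL-3, SCF and IL6, and each library was a sorted bulk population in which the mutants were driven by a retroviral promoter. Ages and numbers of the mice behind the RNA were not used here. The libraries are called biological replicates in the study's design, but no label ties a letter to an animal or culture, so each p-value measures the spread between these libraries.

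The high-affinity IgE receptor sits on mast cells and basophils. Its alpha chain (Fcer1a) binds IgE, its beta chain (Ms4a2) amplifies the signal, and its gamma chain (Fcer1g) carries the signal inward and also serves Fc receptors of other myeloid cells. When antigen clusters IgE on the receptor, these cells release stored histamine, make leukotrienes and prostaglandins from arachidonic acid, and secrete type 2 cytokines such as IL-4 and IL-13. In the mouse, basophils and mast cell progenitors grow in IL-3. The factor GATA2 is known for its part in both lineages, and MITF for its part in mast cells.

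The libraries held between 44210071 and 67431235 counts, and between 21368 and 23262 genes had at least 1 count. A shared axis of variation within groups, which held 33.9% of the spread between replicates, followed transcript length (r = -0.45 across 16322 genes, which are not independent replicates), and CSF3R T618I replicates A and C lay at its opposite ends. Mouse Csf3r averaged 98.3 ± 0.99 CPM with both mutants, 183 ± 74.7 with CSF3R T618I, 27.3 ± 3.13 with CEBPA V314VW and 112 ± 15.8 with empty vector (SD, n = 3 each). Cebpa averaged 216 ± 3.42, 189 ± 13.7 and 141 ± 4.16 CPM with both mutants, CEBPA V314VW and CSF3R T618I, against 141 ± 5.68 with empty vector. Whether reads from the introduced mutants align to these mouse genes is not given in the sources used here, so these levels do not check the labels.

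Promoter sequences are printed for Ms4a2 and Fcer1a, because Ms4a2 fell with CSF3R T618I and Fcer1a passed no test against empty vector. The sequences are from RefSeq (GRCm38.p6), run 5′ to 3′ along the gene and end at the base before the start that RefSeq annotates, which for Fcer1a lies outside the GENCODE gene bounds given further on. Capitals mark AGATAA or its reverse complement TTATCT, a form of the motif that GATA factors bind, which do not overlap each other here.
Ms4a2, chr19:11623720-11623969, minus strand: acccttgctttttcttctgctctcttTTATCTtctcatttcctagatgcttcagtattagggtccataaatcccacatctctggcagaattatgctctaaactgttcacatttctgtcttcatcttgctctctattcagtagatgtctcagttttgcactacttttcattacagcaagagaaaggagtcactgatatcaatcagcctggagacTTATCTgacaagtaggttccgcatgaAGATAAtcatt
Fcer1a, chr1:173227230-173227479, minus strand: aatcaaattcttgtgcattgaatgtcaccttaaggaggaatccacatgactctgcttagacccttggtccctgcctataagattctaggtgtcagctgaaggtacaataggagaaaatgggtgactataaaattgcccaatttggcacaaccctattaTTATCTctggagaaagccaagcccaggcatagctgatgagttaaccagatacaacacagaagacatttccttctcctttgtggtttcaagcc

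The Ms4a2 sequence held 3 matches, beginning at bases -224, -37 and -11 from the start, and the Fcer1a sequence held 1, beginning at base -92. Among 32851 promoter windows of 300 bases, from 250 bases before a start to 50 after it, 18.6% held AGATAA or TGATAA on either strand and 0.502% held at least 3 matches. A match to either motif was found in 4 of the 12 windows of the 10 genes, 1 each for Ms4a2, Fcer1a, Il4 and Il13. The letters TTGCNNAA, searched for CEBP factors, were in 4 of the 12 windows (Fcer1a, Cyp11a1, Hpgds and Il4) and in 10.8% of all windows. CATGTG, an E-box that MITF can bind, was in 4 of the 12 windows and 14.2% of all, CACGTG in 0 and 7.15%, and TTCNNNGAA, searched for STAT factors, in 1 (Il4) and 8.30%. These matches describe the letters in the windows and not binding.

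Of the 10 genes, 9 passed the filter on low counts, and Il13 did not. The tests were edgeR's quasi-likelihood test over 16360 genes with Benjamini-Hochberg adjustment, and a gene is said to have risen or fallen where its adjusted p was under 0.05. In cells with both mutants, compared with empty vector, 7 of the 9 fell and 0 rose, where 10.7% of all genes tested fell and 10.7% rose. With CSF3R T618I alone 5 of the 9 fell and 0 rose, where 9.66% of all genes fell and 10% rose. With CEBPA V314VW alone 5 fell and 0 rose, where 7.68% of all genes fell and 9.5% rose. The median log2 fold change of the 9 was -1.05, -0.43 and -0.79 with both mutants, CSF3R T618I and CEBPA V314VW, against medians over all genes tested of 0.01, 0.01 and 0.00 in the same comparisons. These 3 comparisons share their empty vector libraries. With libraries scaled to total counts in place of TMM, the share of rises among all calls was 33.3% in place of 50.9% with CSF3R T618I against empty vector, where the median of all genes shifted by -0.11, and the counts of members called in these 3 comparisons stayed at 7, 5 and 5. In bulk RNA of this kind, fewer cells of a type and less RNA per cell cannot be told apart.

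**Figure D1:**
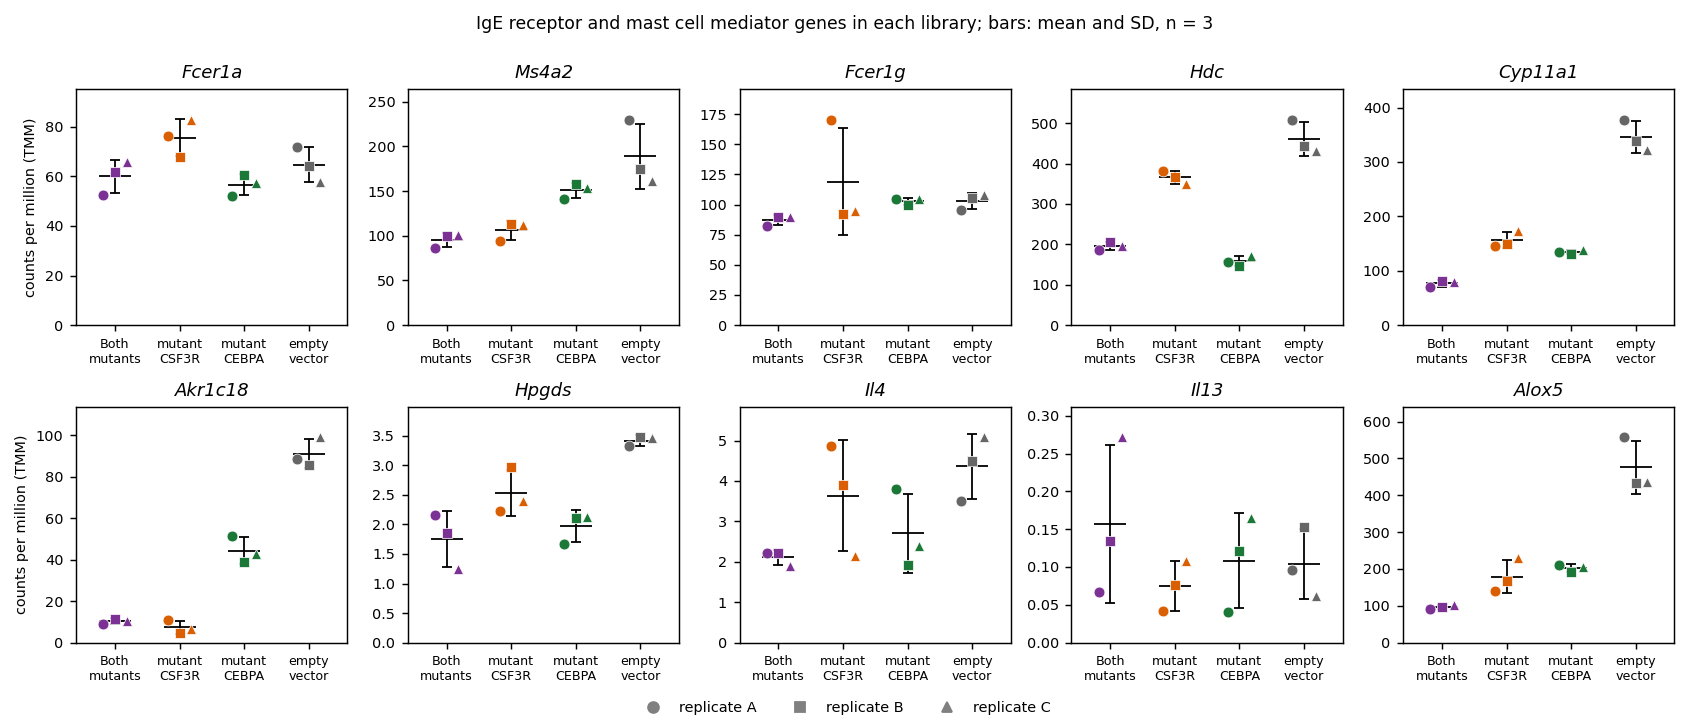
CPM of each of the 10 genes in each library, with both mutants, CSF3R T618I, CEBPA V314VW and empty vector from left to right; symbols are replicates A, B and C, bars the mean and SD (n = 3), and each axis starts at 0. Alox5 and Cyp11a1 were lowest with both mutants, Akr1c18 was under 12 CPM in the 6 libraries with CSF3R T618I, and Fcer1a overlapped the empty vector range in every group.

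On a per-length scale in empty vector cells, Fcer1g averaged 118 CPM per kb of exon and Alox5 116 CPM per kb, followed by Akr1c18 with 75.4, Hdc with 72.1, Cyp11a1 with 72.0, Ms4a2 with 67.1 and Fcer1a with 64.8 CPM per kb. The remaining 3 were far lower, with 3.55 CPM per kb for Il4, 0.533 for Hpgds and 0.086 for Il13. With both mutants Fcer1g (99.7 CPM per kb) and Fcer1a (60.2) stood above all other members, and Akr1c18 averaged 8.52 CPM per kb. Exon length is the union of the annotated exons of each gene, so the scale is approximate where a short transcript predominates.

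Of the 3 receptor chains, Ms4a2 alone passed the test against empty vector. Fcer1a (alpha chain, chr1:173221284-173227214, GRCm38) had 52.6, 61.9 and 65.6 CPM with both mutants, 76.4, 67.7 and 82.8 CPM with CSF3R T618I and 52.2, 60.5 and 57.3 CPM with CEBPA V314VW, against 71.9, 64.1 and 57.8 CPM with empty vector (replicates A, B and C in each case). Every mutant group overlapped the empty vector range. Its log2 fold change from empty vector was -0.11 ± 0.12 (SE, n = 3 per group) with both mutants, 0.23 ± 0.12 with CSF3R T618I and -0.19 ± 0.12 with CEBPA V314VW, and none passed the edgeR test (adjusted p = 0.628, 0.209 and 0.361). The single mutants did differ, with Fcer1a higher in CSF3R T618I than in CEBPA V314VW cells by 0.42 ± 0.12 (log2, edgeR adjusted p = 0.0160). That call was lost without CEBPA V314VW replicate A (0.34, adjusted p = 0.0677), with libraries scaled to total counts (0.26, adjusted p = 0.0841), with only the compared groups in the fit (0.41, adjusted p = 0.0506) and with the trend over transcript length removed, which was tried once the data were known (0.27, adjusted p = 0.332).

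Ms4a2 (beta chain, chr19:11615523-11623719) fell wherever CSF3R T618I was present. It had 86.8, 99.8 and 101 CPM with both mutants, 93.8, 113 and 112 CPM with CSF3R T618I and 141, 158 and 153 CPM with CEBPA V314VW, against 229.8, 175 and 161 CPM with empty vector. All 6 libraries with CSF3R T618I were below all 6 without it. Relative to empty vector, its log2 fold change was -0.98 ± 0.13 with both mutants (edgeR adjusted p = 0.000143) and -0.83 ± 0.13 with CSF3R T618I (adjusted p = 0.000688). CEBPA V314VW alone gave -0.32 ± 0.13, which did not pass (adjusted p = 0.127) but passed without empty vector replicate C (adjusted p = 0.0489) and with voom and library weights (-0.21, adjusted p = 0.0297). Against the CEBPA V314VW group, Ms4a2 was also lower with both mutants (-0.66 ± 0.13, edgeR adjusted p = 0.00381) and with CSF3R T618I alone (-0.51 ± 0.13, adjusted p = 0.00995). Both mutants and CSF3R T618I were neighbours that did not differ beyond their spread (-0.15 ± 0.13, adjusted p = 0.448), although this passed with voom and library weights (-0.22, adjusted p = 0.0186). Voom called 9952 of all genes in that comparison, in place of 3025, and called more genes than edgeR in every comparison. Its library weights ran from 0.126 for CSF3R T618I replicate C to 5.80 for empty vector replicate B. Of the 100-base windows in the Ms4a2 transcripts, 0.406% also occur in its relative Ms4a4b, so few of its reads could have been shared.

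Fcer1g (gamma chain, chr1:171229572-171234365) passed no test in any comparison of the edgeR model over all 12 libraries. It had 82.4, 89.5 and 89.6 CPM with both mutants, 170.3, 91.8 and 95.01 CPM with CSF3R T618I and 105, 99.4 and 105 CPM with CEBPA V314VW, against 95.7, 106 and 108 CPM with empty vector. The 3 libraries with both mutants lay below the range of every other group, and CSF3R T618I replicate A stood above all other libraries. Its log2 fold change from empty vector was -0.24 ± 0.19 with both mutants (edgeR adjusted p = 0.441) and 0.21 ± 0.19 with CSF3R T618I (adjusted p = 0.482). Without CSF3R T618I replicate A, which lies at the short-transcript end of the length axis, the CSF3R T618I value was -0.14 and Fcer1g fell with both mutants (adjusted p = 0.0451). It also fell with both mutants when only the compared groups were fitted, against empty vector (-0.26, adjusted p = 0.0213) and against CEBPA V314VW (-0.23, adjusted p = 0.0185), and likewise with voom and library weights (-0.27 and -0.24, adjusted p = 0.0125 and 0.0485). Its exons span 874 bases, and the part of transcript length in the value of that library was not tested.

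The ratio of the alpha to the beta chain shows the levels of both in the same library. Fcer1a over Ms4a2 was 0.606 to 0.652 with both mutants, 0.600 to 0.815 with CSF3R T618I and 0.370 to 0.383 with CEBPA V314VW, against 0.313 to 0.366 with empty vector. The 6 libraries with CSF3R T618I did not overlap the 6 without it. This ratio was formed after the levels were seen and is given as a description with no test.

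**Figure D2:**
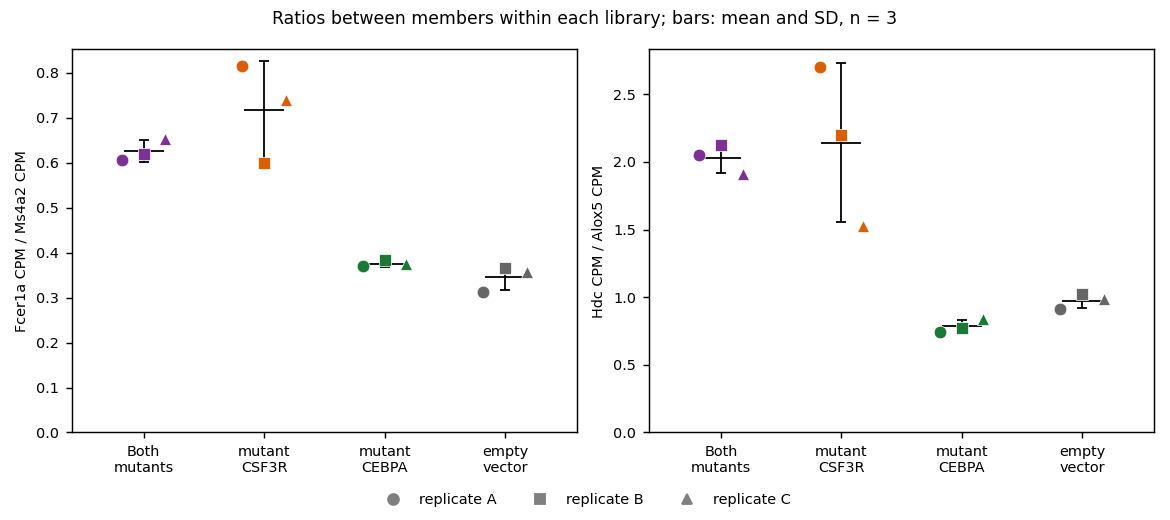
Ratio of Fcer1a to Ms4a2 CPM (left) and of Hdc to Alox5 CPM (right) in each library, with both mutants, CSF3R T618I, CEBPA V314VW and empty vector from left to right; symbols are replicates and bars the mean and SD (n = 3). In both ratios the 6 libraries with CSF3R T618I sit above the 6 without it, at 0.600 or more against 0.383 or less for Fcer1a over Ms4a2.

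Downstream of the receptor, 21 signalling genes were listed and all 21 were tested. With both mutants 7 fell and 0 rose (median log2 -0.16), with CSF3R T618I 3 fell and 2 rose (median -0.11), and with CEBPA V314VW 7 fell and 0 rose (median -0.34). Over all genes tested, 10.7% fell and 10.7% rose with both mutants. With CSF3R T618I 9.66% of all genes fell and 10% rose, and with CEBPA V314VW 7.68% fell and 9.5% rose. The counts of every gene list below are to be read beside these shares. The adaptor Lat, on which receptor-proximal signalling assembles, fell by 1.57 on the log2 scale with both mutants (edgeR adjusted p = 4.45e-05) and by 2.26 with CEBPA V314VW (adjusted p = 3.62e-06). Its average was 20.4 ± 0.721 CPM with both mutants, 12.7 ± 2.51 with CEBPA V314VW and 60.9 ± 16.6 with CSF3R T618I, against 60.6 ± 3.14 with empty vector. The related adaptor Lat2 fell by 1.68 with both mutants (edgeR adjusted p = 2.75e-07). The Src-family kinases moved in opposite directions with CSF3R T618I, where Lyn rose by 0.66 (adjusted p = 0.00336) and Fyn fell by 0.78 (adjusted p = 0.000129). These adaptors and kinases also serve receptors of other blood cells.

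Hdc (histidine decarboxylase, the enzyme that makes histamine, chr2:126593667-126619299) was lowest wherever CEBPA V314VW was present. It had 185, 207 and 195 CPM with both mutants, 157, 147 and 172 CPM with CEBPA V314VW and 380.9, 367 and 350.0 CPM with CSF3R T618I, against 508, 444 and 431 CPM with empty vector. No 2 groups overlapped. From empty vector, Hdc fell by 1.24 ± 0.10 on the log2 scale with both mutants (edgeR adjusted p = 1.09e-06), by 1.54 ± 0.10 with CEBPA V314VW (adjusted p = 3.61e-07) and by 0.33 ± 0.10 with CSF3R T618I (adjusted p = 0.0272). The call for CSF3R T618I was lost without empty vector replicate A, empty vector replicate B or CSF3R T618I replicate B (adjusted p = 0.0966, 0.0571 and 0.0806). It was also lost with no filter, with only the compared groups in the fit, with a replicate block and with the length trend taken out (adjusted p between 0.0560 and 0.138). Hdc was higher in CSF3R T618I than in CEBPA V314VW cells by 1.21 ± 0.10 (edgeR adjusted p = 7.89e-07), and lower with both mutants than with CSF3R T618I by 0.90 ± 0.10 (adjusted p = 3.10e-05).

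With both mutants Hdc was the only member that rose relative to CEBPA V314VW alone, by 0.30 ± 0.10 (edgeR adjusted p = 0.0461). This call was lost when any of 8 single libraries was left out (empty vector B and C, CSF3R T618I B, CEBPA V314VW A and B, and each library with both mutants, adjusted p between 0.0517 and 0.182). It was also lost with total counts, no filter, the replicate block and the length trend taken out (adjusted p between 0.0513 and 0.124), while the sign stayed the same.

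A list of 11 genes held those for histamine storage, breakdown and reception and for secretory granules, and all 11 were tested. With both mutants 3 rose and 3 fell (median log2 -0.40), with CSF3R T618I 0 rose and 4 fell (median 0.13), and with CEBPA V314VW 3 rose and 1 fell (median 0.12). Rab27b, a small GTPase of granule secretion, averaged 10.3 ± 0.966 CPM with both mutants, 10.1 ± 1.21 with CSF3R T618I and 55.1 ± 4.16 with CEBPA V314VW, against 34.2 ± 2.05 with empty vector. It fell by 1.73 with both mutants (edgeR adjusted p = 3.17e-07) and by 1.76 with CSF3R T618I (adjusted p = 4.45e-07), and rose by 0.69 with CEBPA V314VW (adjusted p = 0.000733). Srgn, the core protein of the granule proteoglycan serglycin, fell by 0.40 with both mutants (adjusted p = 0.0198) and by 0.61 with CEBPA V314VW (adjusted p = 0.00185). Hnmt, which inactivates histamine, fell by 0.74 with CSF3R T618I (adjusted p = 0.00150).

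The steroid enzymes were among the most reduced members. Cyp11a1 (the enzyme that cuts the cholesterol side chain to pregnenolone, chr9:58006411-58027023) had 69.7, 81.2 and 79.6 CPM with both mutants, 145, 149 and 172 CPM with CSF3R T618I and 135, 131 and 139 CPM with CEBPA V314VW, against 377, 339 and 322 CPM with empty vector. No 2 groups overlapped, and the libraries with both mutants were the lowest. From empty vector, its log2 fold change was -2.17 ± 0.11 with both mutants (4.50-fold lower, edgeR adjusted p = 2.05e-08), -1.15 ± 0.10 with CSF3R T618I (adjusted p = 4.83e-06) and -1.36 ± 0.10 with CEBPA V314VW (adjusted p = 1.26e-06). Adding the second mutant lowered it further, by 1.02 ± 0.10 relative to CSF3R T618I (edgeR adjusted p = 1.88e-05) and by 0.81 ± 0.10 relative to CEBPA V314VW (adjusted p = 9.76e-05). The single mutants were neighbours that did not pass against each other (0.21 ± 0.10, adjusted p = 0.129), although this passed with the length trend taken out (adjusted p = 0.0252). Its exons overlap those of Gm17322 on the same strand over 145 bases, and 0.959% of its 100-base windows were shared.

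Akr1c18 (an aldo-keto reductase that inactivates progesterone, chr13:4132615-4150654) had the largest fold changes among the 9 tested members in the groups with CSF3R T618I, but not with CEBPA V314VW alone. It had 8.83, 11.6 and 10.5 CPM with both mutants, 10.6, 4.69 and 6.67 CPM with CSF3R T618I and 51.6, 38.8 and 42.6 CPM with CEBPA V314VW, against 88.5, 85.5 and 99.0 CPM with empty vector. Both groups with CSF3R T618I lay far below both without it, and they overlapped each other. From empty vector, Akr1c18 fell 8.84-fold with both mutants (log2 -3.14 ± 0.24, edgeR adjusted p = 1.00e-06), 12.5-fold with CSF3R T618I (-3.64 ± 0.25, adjusted p = 6.40e-07) and 2.05-fold with CEBPA V314VW (-1.04 ± 0.22, adjusted p = 0.00553). It was also lower with both mutants than with CEBPA V314VW (-2.11 ± 0.23, adjusted p = 3.88e-05) and lower with CSF3R T618I than with CEBPA V314VW (-2.60 ± 0.24, adjusted p = 2.91e-06). Against CSF3R T618I, both mutants gave 0.49 ± 0.23, which did not pass (adjusted p = 0.161). That difference became 0.86 and passed without CSF3R T618I replicate A (adjusted p = 0.00580), and it also passed with voom and library weights (1.08, adjusted p = 1.50e-05) and with the length trend taken out (0.73, adjusted p = 0.0267). No 100-base window of Akr1c18 occurred in another annotated transcript.

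Of 10 other genes listed for steroid synthesis, 6 were tested. With both mutants 1 rose and 2 fell (median log2 -0.08), with CSF3R T618I 1 rose and 1 fell (median 0.06), and with CEBPA V314VW 1 rose and 0 fell (median 0.20). Tspo, a mitochondrial outer membrane protein long linked to cholesterol import, rose by 1.31 with both mutants (edgeR adjusted p = 2.13e-05) and by 1.85 with CSF3R T618I (adjusted p = 1.83e-06). Its average was 306 ± 12.1 CPM with both mutants and 444 ± 102 with CSF3R T618I, against 123 ± 14.4 with empty vector. Srd5a1, a steroid reductase, fell by 0.43 with both mutants (adjusted p = 0.0394) and by 0.55 with CSF3R T618I (adjusted p = 0.0129).

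Alox5 (5-lipoxygenase, which starts leukotriene synthesis, chr6:116410077-116461178) followed Cyp11a1. It had 90.2, 97.1 and 102 CPM with both mutants, 141, 167 and 229 CPM with CSF3R T618I and 211, 191 and 205 CPM with CEBPA V314VW, against 557, 433 and 436 CPM with empty vector. Every library with a mutant was below every empty vector library, and those with both mutants were lowest. From empty vector, Alox5 fell 4.92-fold with both mutants (log2 -2.30 ± 0.17, edgeR adjusted p = 5.51e-07), 2.66-fold with CSF3R T618I (-1.41 ± 0.16, adjusted p = 4.47e-05) and 2.35-fold with CEBPA V314VW (-1.23 ± 0.16, adjusted p = 0.000127). It fell further with both mutants relative to CSF3R T618I (-0.89 ± 0.16, adjusted p = 0.00174) and to CEBPA V314VW (-1.07 ± 0.16, adjusted p = 0.000412). The single mutants overlapped and did not pass against each other (-0.18 ± 0.16, adjusted p = 0.405), but without CSF3R T618I replicate C, the highest of its group, Alox5 was lower with CSF3R T618I (adjusted p = 0.0159), as it was with voom and library weights (-0.28, adjusted p = 0.00448).

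Across the 12 libraries, log2 CPM of Cyp11a1 and Alox5 had r = 0.98, and r = 0.87 after the group means were taken out. These values describe libraries that share their groups, depth and the length axis. Hdc and Alox5 parted in contrast, since Hdc over Alox5 was 1.91 to 2.13 with both mutants, 1.53 to 2.70 with CSF3R T618I and 0.745 to 0.837 with CEBPA V314VW, against 0.912 to 1.03 with empty vector. This ratio, too, was formed after the levels were seen.

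Hpgds (the hematopoietic synthase of prostaglandin D2, chr6:65117293-65144908) was measured at low level, from 64 to 195 counts per library. It had 2.16, 1.86 and 1.24 CPM with both mutants, 2.23, 2.97 and 2.40 CPM with CSF3R T618I and 1.66, 2.12 and 2.13 CPM with CEBPA V314VW, against 3.32, 3.48 and 3.47 CPM with empty vector. All 9 libraries with a mutant were below the 3 with empty vector. Hpgds fell with both mutants (log2 -0.97 ± 0.21, edgeR adjusted p = 0.00546) and with CEBPA V314VW (-0.79 ± 0.21, adjusted p = 0.0200), while CSF3R T618I gave -0.43 ± 0.21 and did not pass (adjusted p = 0.174). The CEBPA V314VW call was lost without empty vector replicate B, empty vector replicate C or CEBPA V314VW replicate A (adjusted p = 0.0624, 0.0540 and 0.0779). None of the mutant groups passed against its neighbour in the order of levels, but with voom and library weights Hpgds was lower with both mutants than with CSF3R T618I (-0.77, adjusted p = 0.000652) and higher with CSF3R T618I than with CEBPA V314VW (0.48, adjusted p = 0.0191).

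Of 18 other genes of eicosanoid synthesis and reception, 16 were tested. With both mutants 4 rose and 8 fell (median log2 -0.59), with CSF3R T618I 5 rose and 3 fell (median 0.18), and with CEBPA V314VW 5 rose and 7 fell (median -0.55). Lta4h, which turns the product of Alox5 into leukotriene B4, averaged 1035 ± 20.7 CPM with both mutants, 705 ± 73.8 with CSF3R T618I and 1833 ± 50.1 with CEBPA V314VW, against 1453 ± 57.9 with empty vector. It fell by 0.49 on the log2 scale with both mutants (edgeR adjusted p = 0.00118) and by 1.04 with CSF3R T618I (adjusted p = 3.13e-06), and rose by 0.34 with CEBPA V314VW (adjusted p = 0.0171). Ltb4r1, the leukotriene B4 receptor, rose by 1.01 with CSF3R T618I (adjusted p = 0.000788) and fell by 1.54 with both mutants (adjusted p = 2.13e-05) and by 2.18 with CEBPA V314VW (adjusted p = 2.07e-06). Cysltr1, a receptor for cysteinyl leukotrienes, rose by 1.80 with both mutants (adjusted p = 0.000166), by 1.04 with CSF3R T618I (adjusted p = 0.0104) and by 2.14 with CEBPA V314VW (adjusted p = 5.51e-05). Tbxas1, the thromboxane synthase, fell by 1.91 with both mutants (adjusted p = 6.82e-08), by 0.62 with CSF3R T618I (adjusted p = 0.000925) and by 0.65 with CEBPA V314VW (adjusted p = 0.000642). Ptgs1, the cyclooxygenase COX-1, fell by 0.79 with both mutants (adjusted p = 0.000231) and by 1.57 with CEBPA V314VW (adjusted p = 1.14e-06), and rose by 0.51 with CSF3R T618I (adjusted p = 0.00639).

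The type 2 cytokine genes lie near each other on chromosome 11 and were, with Hpgds, the lowest members per length. Il4 (chr11:53602982-53618669) had 95 to 257 counts per library. It had 2.21, 2.22 and 1.90 CPM with both mutants, 4.85, 3.91 and 2.14 CPM with CSF3R T618I and 3.81, 1.91 and 2.38 CPM with CEBPA V314VW, against 3.50, 4.50 and 5.08 CPM with empty vector. The libraries with both mutants agreed closely and lay below all empty vector libraries, while both single mutants overlapped them. Il4 fell with both mutants (log2 -1.05 ± 0.31, edgeR adjusted p = 0.0266), and this was lost without empty vector replicate B or C or without any library with both mutants (adjusted p between 0.0682 and 0.0990). CSF3R T618I gave -0.26 ± 0.30 (adjusted p = 0.583) and CEBPA V314VW gave -0.69 ± 0.30 (adjusted p = 0.156), which passed with voom and library weights (-0.93, adjusted p = 0.000137) and with the length trend taken out (-0.70, adjusted p = 0.0315). Voom also gave a lower Il4 with both mutants than with CSF3R T618I (adjusted p = 0.000101) and a higher one with CSF3R T618I than with CEBPA V314VW (adjusted p = 0.000687). Without CSF3R T618I replicate C, the lowest of its group, Il4 was lower with both mutants than with CSF3R T618I (adjusted p = 0.00749) and higher with CSF3R T618I than with CEBPA V314VW (adjusted p = 0.0417).

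Il13 (chr11:53631324-53634702) was barely detected. It had 3, 6 and 14 counts with both mutants, 2, 5 and 5 with CSF3R T618I and 2, 6 and 8 with CEBPA V314VW, against 5, 7 and 3 with empty vector. All groups overlapped, and at this depth no difference was detectable.

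Among 15 other type 2 cytokines and receptors, 13 were tested. With both mutants 4 rose and 4 fell (median log2 0.07), with CSF3R T618I 6 rose and 2 fell (median 0.41), and with CEBPA V314VW 2 rose and 5 fell (median -0.40). The receptor chain shared by IL-4 and IL-13, Il4ra, averaged 994 ± 28.6 CPM with both mutants, 833 ± 325 with CSF3R T618I and 174 ± 36.4 with CEBPA V314VW, against 139 ± 25.4 with empty vector. It rose by 2.84 with both mutants (edgeR adjusted p = 3.46e-06) and by 2.59 with CSF3R T618I (adjusted p = 1.11e-05). Its partner Il13ra1 rose by 4.19 with both mutants (adjusted p = 9.03e-05) and by 4.17 with CSF3R T618I (adjusted p = 0.000125). Kit, the SCF receptor that mast cells depend on, fell by 1.88 with both mutants (adjusted p = 0.00252) and fell by 2.08 with CSF3R T618I (adjusted p = 0.00162).

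**Figure D3:**
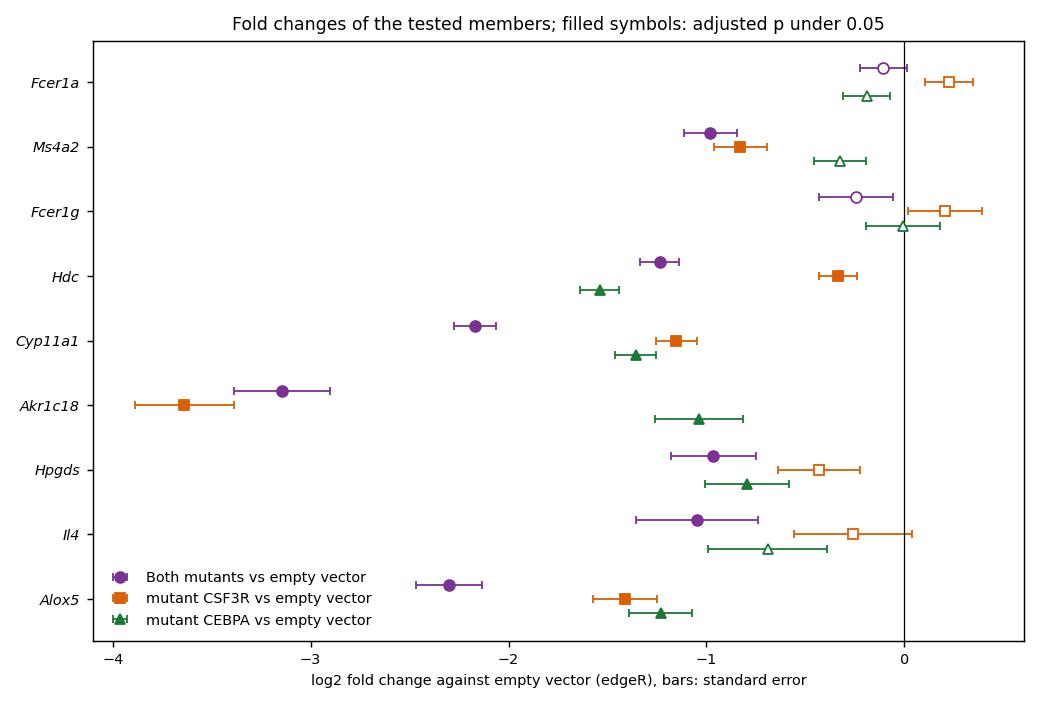
Log2 fold change from empty vector, with its standard error, of the 9 tested genes with both mutants (circles), CSF3R T618I (squares) and CEBPA V314VW (triangles); filled symbols have an edgeR adjusted p under 0.05. Akr1c18 reaches -3.64 with CSF3R T618I, Alox5 and Cyp11a1 are lowest with both mutants at -2.30 and -2.17, Hdc is lowest with CEBPA V314VW at -1.54, and Fcer1a and Fcer1g stay near 0 with open symbols.

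The remaining comparisons asked what a second mutant added. Relative to CSF3R T618I, both mutants lowered 3 of the 9 genes (Hdc, Cyp11a1 and Alox5) and raised 0, where 10.1% of all genes tested fell and 8.43% rose. The median over the 9 was -0.54, against -0.02 over all genes. This count was 5 without CSF3R T618I replicate C, when Fcer1g (adjusted p = 0.0207) and Il4 were added. Over all genes, 6666 were called in this comparison without that library, in place of 3025. Relative to CEBPA V314VW, both mutants lowered 4 (Ms4a2, Cyp11a1, Akr1c18 and Alox5) and raised 1 (Hdc), where 10.1% of all genes fell and 7.79% rose, with a median of -0.36 against -0.02. Scaled to total counts, rises made up 59.2% in place of 45.6% of all calls in the first of these comparisons and 32.9% in place of 43.5% in the second. In the direct comparison of the single mutants, CSF3R T618I had 2 genes higher (Fcer1a and Hdc) and 2 lower (Ms4a2 and Akr1c18) than CEBPA V314VW, where 18.3% of all genes were higher and 18.2% lower. The 9 had a median of 0.21 there, against -0.01 over all genes. Scaled to total counts, higher calls made up 31.9% in place of 50.1% of all calls there, the median of all genes shifted by -0.15, and 3 members were called.

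The interaction term asked whether the effect of both mutants departed from the sum of the single effects on the log2 scale. It passed for 2 of the 9 genes, both upward, where 0.501% of all genes tested passed upward and 1.27% downward. For Hdc the sum of single effects was -1.87 and the value with both mutants -1.24, a departure of 0.64 ± 0.14 (edgeR adjusted p = 0.0339). For Akr1c18 the sum was -4.68 and the value with both mutants -3.14, a departure of 1.53 ± 0.32 (adjusted p = 0.0325). Both calls were lost with the replicate block (adjusted p = 0.0922 for Hdc and 0.0539 for Akr1c18), and that for Hdc also with no filter and with the length trend taken out (adjusted p = 0.0503 and 0.0938). Both also depended on single libraries. The Akr1c18 call was lost without any one of the 9 libraries outside the CSF3R T618I group (adjusted p between 0.0531 and 0.0983). The Hdc call was lost without empty vector A or B, CSF3R T618I B, CEBPA V314VW A or B, or any library with both mutants (adjusted p between 0.0731 and 0.122). Cyp11a1 (0.34 ± 0.14, adjusted p = 0.386) and Alox5 (0.34 ± 0.22, adjusted p = 0.591) did not pass, but did without CSF3R T618I replicate C (adjusted p = 0.0482 and 0.0454) and with voom and library weights (adjusted p = 0.00547 and 0.0218). Over all genes, 1745 and 4739 were called for the interaction under these alternatives, in place of 289. The departures of the remaining 5 genes were between -0.44 for Fcer1g and 0.26 for Hpgds, and none passed.

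**Figure D4:**
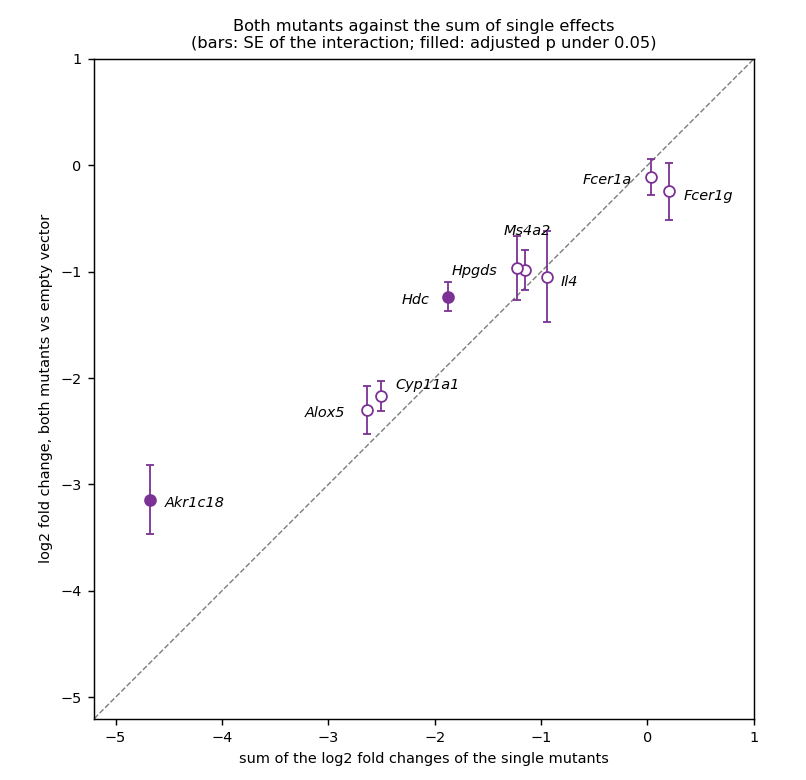
Log2 fold change with both mutants against empty vector (vertical) plotted over the sum of the log2 fold changes of CSF3R T618I and CEBPA V314VW alone (horizontal) for the 9 tested genes; the dashed line marks equal values, bars are the standard error of the interaction and filled symbols have an adjusted p under 0.05. Akr1c18 and Hdc lie above the line by 1.53 and 0.64, and the other 7 genes lie within 0.44 of it.

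The genes whose log2 CPM followed each member most closely over the 12 libraries, among 11988 genes of at least 1 CPM, are given as a description of libraries that share groups and depth. Cyp11a1 was followed by Cd200r4 (r = 0.997), Tmem51 (r = 0.992) and Padi2 (r = 0.992), and Alox5 by Gata2 (r = 0.98), Cd200r4 (r = 0.98) and Marveld1 (r = 0.98). Gata2, a transcription factor of mast cells, basophils and stem cells, averaged 176 ± 14.9 CPM with both mutants, 251 ± 11.01 with CSF3R T618I and 270.5 ± 9.17 with CEBPA V314VW, against 499.9 ± 46.8 with empty vector. The order of its groups is the order seen for Cyp11a1 and Alox5 in that both mutants were lowest and empty vector highest. Akr1c18 was followed by Aldh1a3 (r = 0.98), Rapgef3 (r = 0.97) and Poln (r = 0.97), Ms4a2 by Celsr1 (r = 0.98), Arap3 (r = 0.97) and Inpp4b (r = 0.96), and Hdc by Wdr5 (r = 0.97), Fosl1 (r = 0.97) and Id2 (r = 0.97). For Fcer1a the closest were Maml1 (r = 0.94), Apmap (r = 0.93) and Edem2 (r = 0.93), for Fcer1g Rnaset2b (r = 0.94), Naxe (r = 0.91) and Gtpbp2 (r = 0.90), for Hpgds Tie1 (r = 0.94), Gtpbp8 (r = 0.93) and Glt1d1 (r = 0.92), and for Il4 Syce2 (r = 0.97), Hemk1 (r = 0.97) and Nat9 (r = 0.95).

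Of 14 transcription factors listed for mast cells and basophils, all 14 were tested. With both mutants 1 rose and 4 fell (median log2 -0.13), with CSF3R T618I 4 rose and 3 fell (median -0.07), and with CEBPA V314VW 0 rose and 6 fell (median -0.27). Gata2 fell in all 3, with log2 fold changes of -1.50 with both mutants (edgeR adjusted p = 2.38e-07), -0.99 with CSF3R T618I (adjusted p = 1.11e-05) and -0.89 with CEBPA V314VW (adjusted p = 2.87e-05). Gata1, a related factor shared with the erythroid lineage, rose by 0.75 with CSF3R T618I (adjusted p = 0.000351) and fell by 0.85 with CEBPA V314VW (adjusted p = 0.000146), while both mutants gave -0.04 (adjusted p = 0.863). Mitf was lower with both mutants than with CEBPA V314VW by 1.24 (adjusted p = 0.00155) and fell by 0.75 with both mutants and by 0.73 with CSF3R T618I (adjusted p = 0.0294 and 0.0358), and Bhlhe40, a factor of activated basophils and T cells, fell by 1.18 with CEBPA V314VW (adjusted p = 3.89e-05).

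Markers of the cell types that could carry these genes moved with the groups, and their part in the members' changes was not tested. The summed level of 10 mast cell markers was 439 to 470.2 CPM with both mutants, 679 to 890.3 with CSF3R T618I and 604 to 817 with CEBPA V314VW, against 885 to 1387 with empty vector, and Mrgprb1 and Mrgprb2, receptors of connective tissue mast cells, were at 0 in every library. The single mutants' sums hid opposite differences. Gzmb, at 284 CPM with CSF3R T618I, and Mcpt4, at 1.43 CPM, were higher there than with CEBPA V314VW by 3.04 and 3.12 (log2, edgeR adjusted p = 1.81e-06 and 0.00624). Kit and Tpsb2 were lower with CSF3R T618I than with CEBPA V314VW by 1.44 and 0.78 (adjusted p = 0.00856 and 0.0184), and other listed markers also went both ways. With both mutants 6 of the 8 tested mast cell markers fell, with CSF3R T618I 5 and with CEBPA V314VW 3, and 0 rose. Of all genes tested, 10.7%, 9.66% and 7.68% fell and 10.7%, 10% and 9.5% rose in these comparisons. The sum of 6 basophil markers was 304 to 348 CPM with both mutants, 803 to 1214 with CSF3R T618I and 1178 to 1358 with CEBPA V314VW, against 1967 to 2498 with empty vector. Mcpt8, a basophil protease, averaged 86.4 ± 9.30 CPM with both mutants and 252 ± 13.5 with CEBPA V314VW, against 1087 ± 76.8 with empty vector, and fell by 3.65 and 2.11 in these groups (edgeR adjusted p = 4.12e-08 and 3.62e-06). With CSF3R T618I, Mcpt8 fell by 1.02 (adjusted p = 0.00108). Prss34, another basophil protease, fell by 2.52 with both mutants (adjusted p = 2.07e-07) and by 1.68 with CSF3R T618I (adjusted p = 7.58e-06). Unlike Mcpt8, Prss34 did not pass with CEBPA V314VW (-0.19, adjusted p = 0.496). Of the 6 basophil markers 4 fell with both mutants and 3 with each single mutant, and 1 (Il18rap) rose with CSF3R T618I and was among those that fell with CEBPA V314VW.

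Other lineages were measured in the same way. Eosinophil markers summed to 16.4 to 24.2 CPM with both mutants, 153 to 258 with CSF3R T618I and 33.0 to 57.1 with CEBPA V314VW, against 343 to 520.3 with empty vector, and 5, 3 and 4 of 6 fell. Of the 6, Ccr3 rose with CEBPA V314VW (1.90 on the log2 scale, edgeR adjusted p = 0.00207), at 1.13 CPM. The 8 neutrophil markers summed to 4508 to 5105, 9505 to 13864 and 4938 to 6243 CPM with both mutants, CSF3R T618I and CEBPA V314VW, against 7912 to 12811 with empty vector. This sum hid opposite changes with CSF3R T618I, where S100a8 and S100a9 rose by 3.15 and 4.05 (log2, edgeR adjusted p = 4.86e-05 and 9.59e-05). Elane and Mpo fell there by 0.62 and 1.17 (adjusted p = 0.00531 and 0.0112), and the other neutrophil markers did not pass. In the order both mutants, CSF3R T618I and CEBPA V314VW, the 5 erythroid markers summed to 148 to 157, 302 to 629.8 and 30.0 to 37.1 CPM, against 44.3 to 53.0 with empty vector. The 6 monocyte and macrophage markers summed to 272 to 279, 232 to 352 and 328 to 426 CPM, against 367 to 503 with empty vector, and the 5 megakaryocyte markers to 60.2 to 75.3, 119 to 138 and 108 to 115 CPM, against 145 to 163. The 9 markers of T cells and type 2 innate lymphoid cells, which also make IL-4 and IL-13, summed to 5.92 to 6.32 CPM with both mutants, 9.63 to 12.1 with CSF3R T618I and 2.71 to 3.45 with CEBPA V314VW, against 1.88 to 3.71 with empty vector. Among them Il7r averaged 4.63 ± 0.355 CPM with both mutants, 9.71 ± 1.14 with CSF3R T618I and 0.255 ± 0.201 with CEBPA V314VW, against 1.02 ± 0.712 with empty vector. It rose with both mutants and with CSF3R T618I (edgeR adjusted p = 0.00302 and 0.000206) and fell with CEBPA V314VW (adjusted p = 0.0259). Il7r made up most of the sum with both mutants and with CSF3R T618I. Gata3 went the other way, as it rose with CEBPA V314VW (1.31 on the log2 scale, adjusted p = 0.00275). With CSF3R T618I Gata3 gave -0.82, which did not pass (adjusted p = 0.0521). Apart from Il7r and Gata3, every marker of this list averaged under 1 CPM in each group, and Cd8a was at 0. The part of T cells and type 2 innate lymphoid cells in the level of Il4 was not tested. Sums were at most 14.0 CPM for 4 markers of B cells and 13.1 CPM for 5 of dendritic cells in any library.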

How the data were processed

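RNA-seq (single-end reads, SMARTer low-input libraries) was analysed from 1 table for 12 libraries. The table as deposited holds unnormalised counts of reads for each gene, which the authors made from trimmed reads (Trimmomatic) aligned with STAR to mm10. The counting program and its use of strand were not given in the sources used here. Of 51918 lines, 6 repeated genes with identical counts were dropped, and 0 columns lacked a sample.

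Genes were tested with edgeR 4.0.16 in R 4.3.3: TMM scaling, filterByExpr by group (16360 genes left), 1 quasi-likelihood model over all 12 libraries, 7 contrasts including the interaction, and Benjamini-Hochberg adjustment over all genes tested, with a threshold of 0.05. CPM uses TMM library sizes, correlations a prior count of 2. Each standard error (SE) of a log2 fold change was derived from that fold change and the F value of its quasi-likelihood test. Alternatives were DESeq2 1.42.0 size factors and test, total counts, no filter, limma 3.58.1 voom with library weights, only the compared groups, a replicate block, leaving out each library, a log2 threshold of 1 and, chosen after seeing the data, a length trend taken out. Scripts were tested on simulated counts.

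The members and all gene lists (6 pathway and 10 cell type lists) were chosen with earlier results of these data known. All members were named. From each list, at most 2 genes per direction and contrast were eligible, those with the largest change among those past the threshold at 1 CPM or more, and the 3 genes most like each member were named. A gene eligible in 1 contrast could be described in others. No libraries held identical values. Exons came from GENCODE M21 (GRCm38), and 51633 of the 51912 gene IDs matched it.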

Additional observations from a re-analysis of the deposited data

Results flagged for a closer look

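For Hdc, the effect of CSF3R T618I differed with and without CEBPA V314VW. With CEBPA V314VW it was 0.30 and without it -0.33 on the log2 scale, and the test of the difference itself gave 0.635 (edgeR interaction, adjusted p = 0.0339).

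For Akr1c18, CSF3R T618I gave -2.11 in the presence of CEBPA V314VW and -3.64 in its absence, and the difference was 1.53 (edgeR interaction, adjusted p = 0.0325). In both genes the difference stayed positive under every alternative run. Both calls were lost with the replicate block (adjusted p = 0.0922 for Hdc and 0.0539 for Akr1c18, edgeR), that for Hdc also with no filter and with the length trend taken out (adjusted p = 0.0503 and 0.0938), and both were lost without single libraries named in the report.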

How the results depend on the processing

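Over the 63 log2 fold changes of the 9 tested genes, 1251 values were recomputed under the alternatives other than the log2 threshold of 1. Of these values, 1152 kept their sign and side of the adjusted p threshold, 52 lost a call, 28 gained one and 19 changed sign. Of the 31 calls, 24 were kept under all of these alternatives run for them, and 0 changed sign. The log2 threshold of 1 is not part of this tally, and calls lost to it are given below. The other 7 calls, 3 of them for Hdc and 1 each for Hpgds, Il4, Fcer1a and Akr1c18, are given in the report with the libraries they rest on.

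With a log2 threshold of 1 added, the members called numbered 3 for CSF3R T618I against empty vector, 1 and 2 for both mutants against CSF3R T618I and against CEBPA V314VW, 2 between the single mutants and 1 for the interaction. Of the members called with both mutants against empty vector, Ms4a2 (-0.98) and Hpgds (-0.97) fell short of that threshold. Of those called with CEBPA V314VW against empty vector, Hpgds (-0.79) fell short of it. With voom and library weights the members called numbered 8 for both mutants against CSF3R T618I, 7 between the single mutants and 4 for the interaction. The interaction had 1 call with no filter and 1 with the length trend taken out. Without each library in turn, the members called ranged from 3 to 5 for both mutants against CSF3R T618I and from 0 to 4 for the interaction. The cause was not tested.

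Values that changed sign did so in differences that were not called. For Fcer1g, CSF3R T618I against empty vector was -0.15 with voom, -0.023 with the length trend taken out and between -0.14 and 0.36 without single libraries. CSF3R T618I against CEBPA V314VW was -0.12, -0.0026 and between -0.14 and 0.37 under the same alternatives, and CEBPA V314VW against empty vector was 0.037 with total counts and between -0.070 and 0.0099 without single libraries. Without single libraries, Il4 ranged from -0.51 to 0.0023 with CSF3R T618I against empty vector, and Hpgds from -0.35 to 0.031 with both mutants against CEBPA V314VW. In the interaction, Fcer1a was 0.072 with the length trend taken out, Ms4a2 -0.0067 and Hpgds -0.043 with voom, and Il4 0.050 with voom, 0.19 with the length trend taken out and between -0.36 and 0.24 without single libraries.

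Equal replicate letters did not pair the libraries: of 18 same-letter pairs, r of the deviations from group means was between -0.35 and 0.29, with 2 over 0.1, and 5 of 12 libraries correlated best with their own letter. With the replicate block the interaction called 0 members (2 without it) and 177 genes in all (289 without it), and the members called were 4 in place of 5 for CSF3R T618I against empty vector and for both mutants against CEBPA V314VW, with the other counts as before.

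Over all genes, voom called 9651 in place of 3217 for CSF3R T618I and 7010 in place of 2812 for CEBPA V314VW against empty vector, 8507 in place of 3509 for both mutants against empty vector, 9952 in place of 3025 and 6818 in place of 2926 against CSF3R T618I and CEBPA V314VW, 10935 in place of 5964 between the single mutants and 4739 for the interaction. DESeq2 called 571 for the interaction. With only the compared groups, 1702 were called for CSF3R T618I against empty vector, and 2013 and 4696 for both mutants against CSF3R T618I and CEBPA V314VW. Without CSF3R T618I replicate C, 6399 were called for CSF3R T618I against empty vector, 6666 for both mutants against CSF3R T618I and 1745 for the interaction. Without replicate A of both mutants, 1934 were called against CSF3R T618I and 153 for the interaction, the lowest of its leave-one-out counts. Depth limits Il13, with 2 to 14 counts per library, and to a lesser degree Hpgds and Il4.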
